A study of Mus musculus with 2 samples.

Results

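The genes described here are 10 that mark hepatic stellate cells and the pericytes to which they are related: Reln, Rgs5, Kcnj8, Abcc9, Cspg4, Ngfr, Nes, Lhx2, Hand2 and Tcf21. They were taken by symbol from a table of 17128 genes, and 9 of the 10 were measured. Ngfr, which encodes the low-affinity neurotrophin receptor p75, was not analysed here. The study profiled RNA from primary mouse hepatic stellate cells of the genotype Adar1f/f/Cre-ER, in which the gene for the double-stranded RNA editing enzyme ADAR1 is floxed and the recombinase Cre-ER is switched on by 4-hydroxytamoxifen (4-OHT). One library came from cells given vehicle and 1 from cells given 100 nM 4-OHT, each after 4 days of activation in culture in DMEM with serum. The comparison asks how loss of ADAR1 bears on the activation of these cells, and the vehicle cells carry the same floxed alleles and Cre-ER. The promoter that drives Cre-ER, the age and strain of the mice and the number pooled are not stated in the labels, and no library of cells without floxed alleles given 4-OHT was analysed. With 1 library per group there was no spread between replicates and no test, so every difference below is between these libraries.

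Stellate cells sit between hepatocytes and the sinusoidal endothelium, where they store retinoids and, like pericytes elsewhere, wrap the vessel. When activated by injury or by culture on plastic they turn into contractile cells that lay down matrix. The genes fall into 3 sets of roles. Reln, Cspg4, Ngfr and Nes encode surface, secreted or cytoskeletal markers. Rgs5, Kcnj8 and Abcc9 encode signalling and channel proteins of pericytes. Lhx2, Hand2 and Tcf21 encode transcription factors of the mesenchyme from which stellate cells arise. None is exclusive to stellate cells: nestin is also made by growing endothelium, reelin by lymphatic endothelium, and NG2 and the channel subunits by smooth muscle.

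RefSeq promoters on GRCm38.p6 were found for all 10 genes, with 11 start sites, since Lhx2 has more than 1. The 250 bases before the start are shown for the 2 genes that were lower past the threshold used below, Reln at chr5:22344706-22344955 (minus strand) and Rgs5 at chr1:169655251-169655500 (plus strand). They are also shown for the channel neighbours that moved apart, Kcnj8 at chr6:142571615-142571864 and Abcc9 at chr6:142702275-142702524 (both minus strand). Capitals mark the E-box CANNTG, the kind of site that basic helix-loop-helix factors such as Hand2 and Tcf21 bind.
Reln: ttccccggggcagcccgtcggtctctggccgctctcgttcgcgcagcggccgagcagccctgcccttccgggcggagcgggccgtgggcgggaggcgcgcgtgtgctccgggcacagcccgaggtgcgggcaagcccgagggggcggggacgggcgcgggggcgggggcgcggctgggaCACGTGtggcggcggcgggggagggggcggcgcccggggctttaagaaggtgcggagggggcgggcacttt
Rgs5: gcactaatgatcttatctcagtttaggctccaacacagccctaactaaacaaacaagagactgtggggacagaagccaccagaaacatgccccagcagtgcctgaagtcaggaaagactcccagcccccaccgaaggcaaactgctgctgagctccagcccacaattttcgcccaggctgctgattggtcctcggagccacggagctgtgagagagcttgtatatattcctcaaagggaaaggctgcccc
Kcnj8: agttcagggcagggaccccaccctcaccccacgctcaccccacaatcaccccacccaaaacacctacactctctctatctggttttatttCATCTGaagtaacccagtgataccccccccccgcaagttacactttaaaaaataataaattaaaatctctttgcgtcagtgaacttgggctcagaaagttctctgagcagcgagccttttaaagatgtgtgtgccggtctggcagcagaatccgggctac
Abcc9: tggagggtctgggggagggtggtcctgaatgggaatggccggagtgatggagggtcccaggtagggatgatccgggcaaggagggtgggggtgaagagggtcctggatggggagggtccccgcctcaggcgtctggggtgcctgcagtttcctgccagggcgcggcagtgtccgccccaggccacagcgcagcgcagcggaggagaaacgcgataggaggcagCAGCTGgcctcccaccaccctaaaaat
The Reln promoter is 80% G and C, against 53.6% for Rgs5, 49.2% for Kcnj8, 66.8% for Abcc9 and a median of 52.4% over 32851 promoters. Its E-box begins 71 bases before the start, that of Kcnj8 160 bases and that of Abcc9 27 bases before, and the Rgs5 window holds none. An E-box stood in 5 of the 11 windows and in 66.2% of all promoters of that length, searched on both strands. The interferon-stimulated response element, read as GAAA repeated after a gap of 2 bases, stood in none of the 11 and in 2.98% of all promoters, and the gamma-activated site TTCNNNGAA in none and in 7.02%. The LIM-homeodomain core TAATTA stood in the Hand2 window alone among the 11 and in 4.84% of all promoters, and the CArG box in none and in 1.47%. These are matches of letters in these windows.

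The label of the cells was set against marker genes before the comparison. FPKM (fragments per kilobase of transcript, scaled to library size) is a level per length. Comparing it between genes rests on the transcript length taken for each gene. Coding transcripts of Abcc9, for example, run from 1458 to 7499 bases. Stellate genes were detected: Dcn, decorin, was at 121 FPKM in the vehicle library and 65.6 FPKM in the 4-OHT library, Des, desmin, at 12.6 and 7.15 FPKM, Pdgfrb, the PDGF receptor of mural cells, at 6.24 and 2.13 FPKM, and Lrat, the retinol-esterifying enzyme, at 1.36 and 0.209 FPKM. The wider list of 22 activated stellate genes summed to 1768 FPKM with vehicle and 929 with 4-OHT, and 26 measured quiescent stellate genes to 914 and 1114. Endothelial and macrophage genes were detected as well. All 14 endothelial markers were measured, with a summed level of 2085 FPKM in the vehicle library and 1956 FPKM in the 4-OHT library and none at 0. Levels within the list ran from 4.79 to 421 FPKM with vehicle. Among them Stab2, a scavenger receptor of sinusoidal endothelium, was at 147 and 68.5 FPKM and Cdh5, the endothelial cadherin, at 300.2 and 320 FPKM. All 14 macrophage markers were measured, with a summed level of 6024 and 3938 FPKM and none at 0, and Csf1r, the macrophage growth factor receptor, was at 275 and 239 FPKM. Most of the difference between these sums came from Lyz2, at 3050 and 1353 FPKM. Of the 14 markers 10 had a change below 0 and 4 above, among the latter Adgre1 (172 and 196 FPKM) and Cd68 (392 and 504 FPKM). The 9 measured stellate and pericyte genes summed to 87.0 FPKM in the vehicle library and 65.7 FPKM in the 4-OHT library. In bulk RNA, fewer cells of a type and less RNA per cell cannot be told apart. The floxed gene Adar was not analysed here, which leaves the labels of the libraries without that check.

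**Figure D1:**
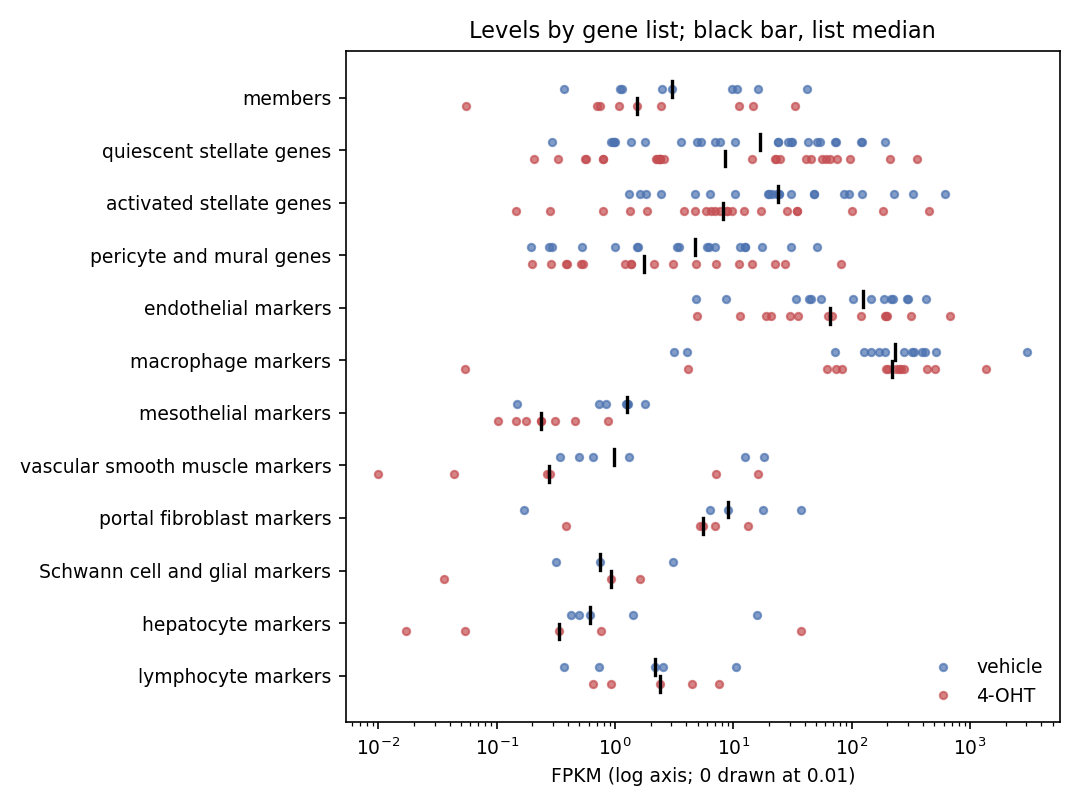
FPKM (log axis) of each measured gene in 12 gene lists, with 1 point per gene and library, vehicle in blue and 4-OHT in red, black bars for list medians and 0 drawn at 0.01. The endothelial and macrophage lists, with vehicle medians of 125 and 233 FPKM, lie to the right of the stellate and pericyte genes, whose vehicle median is 3.01 FPKM.

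In the 4-OHT library Reln and Rgs5 were about 4-fold below the vehicle library, Tcf21 and Cspg4 were also at under 0.5 of their vehicle level, and Abcc9, Hand2 and Nes were lower by less. Kcnj8 and Lhx2 were higher, by less than 2-fold. The ratio of the 4-OHT to the vehicle level ranged from 0.149 for Cspg4 to 1.50 for Kcnj8, a 10.1-fold range, with 7 of 9 genes under 1 and 2 over 1. For a call, the change was taken as the log2 of FPKM plus 1, 4-OHT over vehicle, and kept to genes that reached 1 FPKM in either library. That scale understates the change of low genes. Of the 9 genes 8 had 1 FPKM or more, and of these 2 were at least 2-fold lower and none was at least 2-fold higher. Among all 13558 genes past the same minimum, 472 (3.48%) were at least 2-fold lower and 783 (5.78%) at least 2-fold higher. With the 4-OHT library scaled to the vehicle total, those counts were 643 lower and 632 higher, and the members' counts were still 2 and 0. The median change of the 8 genes was −0.43, beside 0.03 for all 13558 genes.

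**Figure D2:**
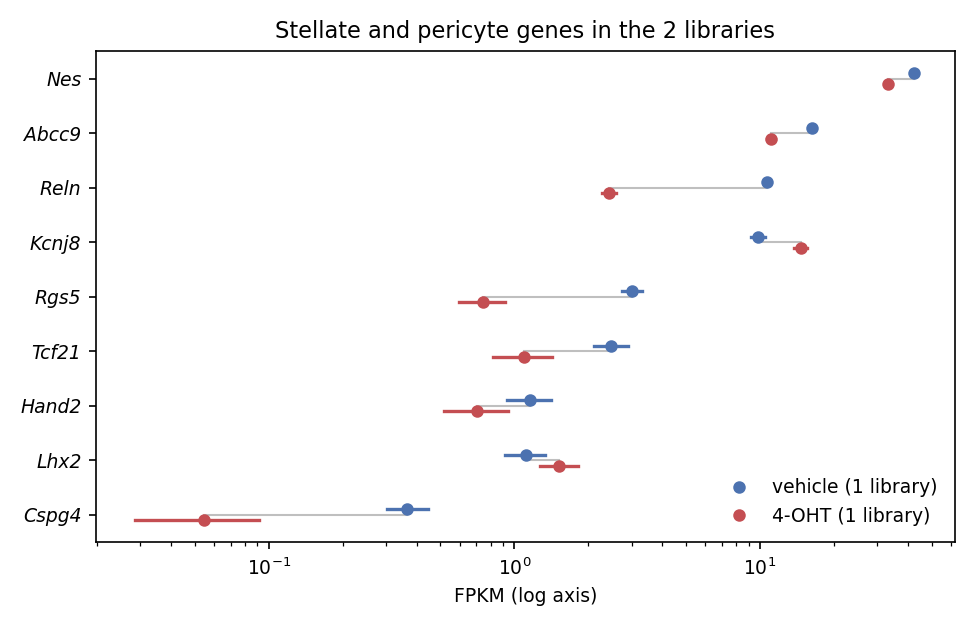
FPKM (log axis) of the 9 measured genes in the vehicle library (blue) and the 4-OHT library (red), with 95% counting intervals as bars that assume the longest coding transcript. Reln, Rgs5, Tcf21 and Cspg4 show the widest gaps to the left, and Kcnj8 and Lhx2 are the 2 genes whose 4-OHT point lies to the right.

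**Figure D3:**
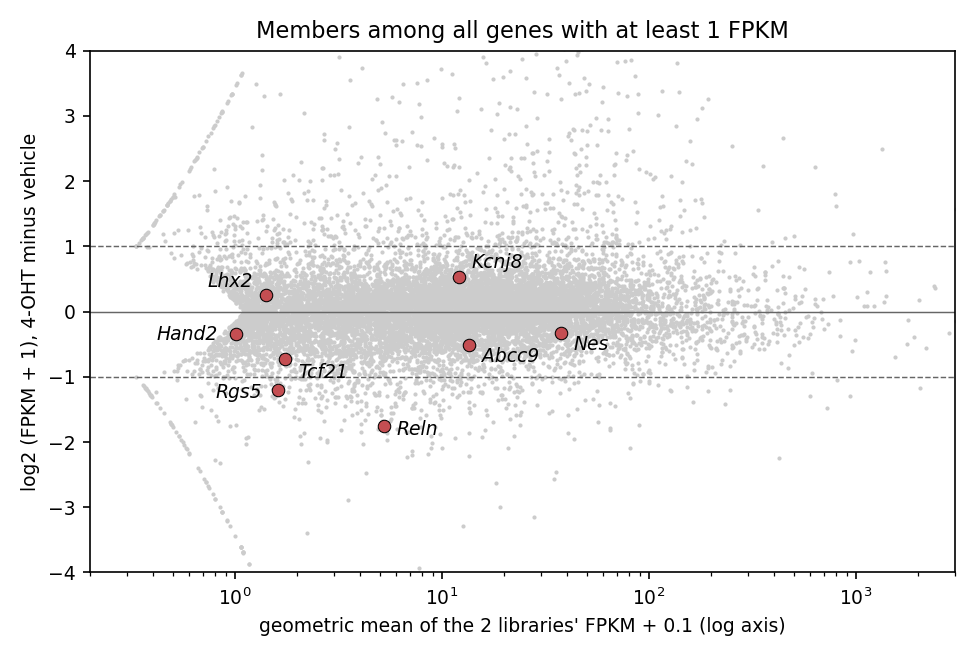
Change in log2 (FPKM + 1), 4-OHT minus vehicle, against the geometric mean level (log axis), for the 8 genes with at least 1 FPKM (red) among 13558 genes (grey), with dashed lines at 2-fold. Reln (−1.76) and Rgs5 (−1.20) lie below the lower line and the other 6 between the lines, and genes beyond 4 in either direction are outside the plot.

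The depth behind these values was recovered from the low values, and 1 FPKM over 1 kilobase equals 38.6 fragments in the vehicle library and 30.5 in the other. Counting intervals below are 95% exact intervals that take all fragments of a gene to come from its longest coding transcript. They cover counting error only, not the spread between cultures, and PCR copies cannot be told from molecules. On that basis, with the deposited scaling, the interval of the ratio lay to 1 side of 1 for all 9 genes. It did so for 8 of 9 if the shortest coding transcript is assumed, the exception being Lhx2. The intervals were not recomputed under other scalings, and that of Lhx2 began at 1.06 with the longest transcript, close to 1.

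Among the surface and secreted markers, Reln had the lowest change among the genes past the minimum. It encodes reelin, a large secreted glycoprotein that guides migrating neurons and in the liver marks stellate cells (chromosome 5, 21884454 to 22344702, minus strand, GRCm38). Reln was at 10.6 FPKM in the vehicle library and 2.43 FPKM in the 4-OHT library, about 4730 and 855 fragments. Its ratio was 0.229 (95% counting interval 0.212 to 0.246) and its log2 change −1.76, the 111th lowest of 13558 genes. The authors' deposited table gave Reln a q-value of 0.0160, under the 0.05 that it marked as significant. That table called 129 of 17145 rows lower (0.752%), among them 2 of the 9 genes here, Reln and Rgs5, and 295 higher (1.72%), with none of the 9.

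Cspg4 encodes NG2, a membrane proteoglycan of pericytes and of oligodendrocyte precursors (chromosome 9, 56865033 to 56899870, plus strand). Its level was the lowest of the 9, at 0.367 FPKM in the vehicle library and 0.0547 FPKM in the 4-OHT library, about 113 and 13 fragments. The ratio of 0.149 (95% counting interval 0.0751 to 0.259) was the smallest of the 9. Cspg4 was under the minimum of 1 FPKM and so outside the counts, and the added 1 shrank its log2 change to −0.37. The authors' deposited table gave it a q-value of 0.379.

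Nes encodes nestin, an intermediate filament protein of progenitor cells that stellate cells take up on activation (chromosome 3, 87971078 to 87980451, plus strand). It was the most abundant of the 9 in each library, at 42.2 FPKM in the vehicle library and 33.3 FPKM in the 4-OHT library. This level exceeded that of 89.0% of all genes with vehicle and 83.6% with 4-OHT. The ratio was 0.790 (95% counting interval 0.765 to 0.816) and the log2 change −0.33, within 2-fold. The authors' deposited table gave Nes a q-value of 0.999637.

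Of the pericyte signalling genes, Rgs5 was lower and the channel subunits moved in opposite directions. Rgs5 encodes a GTPase-activating protein that shortens signals of G-protein-coupled receptors such as those for vasoconstrictors (chromosome 1, 169655501 to 169695813, plus strand). It was at 3.01 FPKM in the vehicle library and 0.743 FPKM in the 4-OHT library, about 456 and 89 fragments. The ratio was 0.247 (95% counting interval 0.194 to 0.310) and the log2 change −1.20, past 2-fold. A pseudocount of 5 brought the change to −0.48, within 2-fold, and a 3-fold threshold also left it out. If the shorter coding transcript of 723 bases is assumed, about 64 and 13 fragments remain and the interval widens to 0.128 to 0.466. In the authors' deposited table its q-value was 0.0412.

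Kcnj8 and Abcc9 encode the pore Kir6.1 and the sulfonylurea receptor SUR2 of the vascular ATP-sensitive potassium channel, which relaxes mural cells when it opens. They are neighbours on the minus strand of chromosome 6, Kcnj8 at 142564837 to 142571614 and Abcc9 at 142587862 to 142702315, with 16247 bases between them. Kcnj8 was at 9.80 FPKM in the vehicle library and 14.7 FPKM in the 4-OHT library, a ratio of 1.50 (95% counting interval 1.37 to 1.64). Abcc9 was at 16.3 FPKM in the vehicle library and 11.1 FPKM in the 4-OHT library, a ratio of 0.682 (95% counting interval 0.649 to 0.716). The order of the pair therefore reversed: the level of Kcnj8 was 0.602 of that of Abcc9 with vehicle and 1.32 with 4-OHT, a 2.20-fold shift of the ratio. Each gene on its own was within 2-fold, with log2 changes of 0.54 and −0.51. The authors' deposited table gave p-values of 0.130 for Kcnj8 and 0.154 for Abcc9, unadjusted, and called neither.

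The transcription factor genes were low in both libraries and differed in direction. Tcf21 encodes a basic helix-loop-helix factor of mesenchymal progenitors that has been described to hold stellate cells in a quiescent state (chromosome 10, 22817281 to 22820174, minus strand). It was at 2.47 FPKM in the vehicle library and 1.09 FPKM in the 4-OHT library, about 154 and 54 fragments. The ratio was 0.441 (95% counting interval 0.318 to 0.606) and the log2 change −0.73, within 2-fold on the scale with 1 added. A pseudocount of 0.1 gave −1.11, past 2-fold. The authors' deposited table gave a q-value of 0.892.

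Hand2, a related helix-loop-helix factor of heart, limb and liver mesenchyme (chromosome 8, 57320983 to 57324633, plus strand), was at 1.16 FPKM in the vehicle library and 0.706 FPKM in the 4-OHT library. It has 1 annotated transcript, and its values fell on 97 and 47 fragments without any assumption on the transcript. The ratio was 0.611 (95% counting interval 0.422 to 0.875) and the log2 change −0.34. The opposite-strand RNA Hand2os1, which overlaps it, was at 2.17 and 1.90 FPKM (log2 change −0.13). The labels do not say whether the counting used strand, so fragments of the pair cannot be told apart. The same limit applies to Reln, Abcc9, Lhx2 and Tcf21, which also have annotated genes on the opposite strand over them, while the other 4 have none.

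Lhx2 encodes a LIM-homeodomain factor whose loss in mice leaves the fetal liver with activated stellate cells and fibrosis (chromosome 2, 38339281 to 38369733, plus strand). It was at 1.11 FPKM in the vehicle library and 1.52 FPKM in the 4-OHT library, about 114 and 124 fragments. The ratio was 1.37 (95% counting interval 1.06 to 1.79), or 0.498 to 3.80 if its shortest coding transcript of 375 bases is assumed. The log2 change was 0.26, and the authors' deposited table gave a q-value of 0.999637.

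In order of level, the vehicle library ran Nes, Abcc9, Reln, Kcnj8, Rgs5, Tcf21, Hand2, Lhx2 and Cspg4. The counting intervals of Reln and Kcnj8, of Rgs5 and Tcf21, and of Hand2 and Lhx2 overlapped, so these neighbours could not be ordered. In the 4-OHT library the order was Nes, Kcnj8, Abcc9, Reln, Lhx2, Tcf21, Rgs5, Hand2 and Cspg4, with overlap from Lhx2 through Hand2 at each step. Reln thus passed from a level above that of 61.1% of all genes to one above that of 36.6%. Rgs5 passed from above 39.0% to above 20.5%.

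Partner genes of each member were set beside it. These lists were drawn up with earlier results of these data known, and their counts and medians are a description. Calls of 2-fold in these and later lists use the scale with 1 added. A low gene that is not counted can therefore have a plain ratio past 2-fold. Reelin acts through the receptors Vldlr and Lrp8 (ApoER2), and these moved in opposite directions: Lrp8 was at 3.03 and 0.836 FPKM (log2 change −1.14) and Vldlr at 1.03 and 2.59 FPKM (0.82). Of 13 measured genes of the reelin pathway 1 was lower, Lrp8, and none was higher by 2-fold on the scale with 1 added (median 0.04). The plain ratio of Vldlr was 2.52. The kinase gene Src (19.6 and 37.5 FPKM, 0.90) had the highest change on the list and lay within 2-fold. In the authors' deposited table neither receptor was called, with q-values of 0.196 for Lrp8 and 0.613 for Vldlr.

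Rgs4, a relative of Rgs5 that is also on chromosome 1, 45663 bases away, had 3.35 FPKM in the vehicle library and 1.21 FPKM in the 4-OHT library (log2 change −0.97). Other genes of the RGS family took other directions. Rgs1, an immune-cell member, was at 195 and 574 FPKM (1.56), and Rgs14 at 1.97 and 4.76 FPKM (0.95). Of 9 RGS genes with at least 1 FPKM, 1 was higher, Rgs1, and none was lower by 2-fold on the scale with 1 added (median 0.02). The plain ratios were 0.362 for Rgs4 and 2.41 for Rgs14, both past 2-fold. The authors' deposited table made no call among them.

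For the channel, the alternative subunit genes Kcnj11 and Abcc8 were not analysed here. Among 6 related channel and transporter genes none passed 2-fold on the scale with 1 added, and the median was −0.44. Abcc3, an exporter of conjugated bile acids, was nearest to 2-fold at 23.7 and 11.7 FPKM (log2 change −0.96, plain ratio 0.494). Of 9 partners of NG2, 1 was lower, Pdgfrb (−1.21, ratio 0.341), and the median was −0.12. Its relative Pdgfra, the PDGF receptor that binds NG2 on progenitor cells, was at 10.3 and 6.53 FPKM (−0.59). Pdgfrb had a q-value of 0.0358 in the authors' deposited table.

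The neurotrophins and their receptors held 8 measured genes, 2 of them lower and none higher (median −0.39). Sort1, which encodes sortilin, the co-receptor of p75 for neurotrophin precursors, was at 9.62 FPKM in the vehicle library and 2.54 FPKM in the 4-OHT library (log2 change −1.59). Maged1, an adaptor of p75, was at 38.7 and 18.7 FPKM (−1.01). The ligand gene Bdnf (3.51 and 2.79 FPKM, −0.25) lay within 2-fold. Sort1 had a q-value of 0.00466 in the authors' deposited table, while Ntrk2 and Ntrk3 were not analysed here.

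Of the filament proteins that pair with nestin, Vim, vimentin, was at 630 and 666 FPKM (log2 change 0.08) and Des, desmin, at 12.6 and 7.15 FPKM (−0.74). Gfap was not analysed here. Among 8 LIM-homeodomain factors and cofactors, 1 was lower, Ldb2 (−1.16), and 1 higher, Lmo4, a LIM-only protein that competes for the same cofactor (27.3 and 66.8 FPKM, 1.26). Ldb1, the cofactor that Lhx2 needs, was at 36.6 and 28.1 FPKM (−0.37). Of 17 helix-loop-helix partners and mesodermal factors, 1 was lower, Id4, an inhibitor of such factors (15.7 and 3.90 FPKM, −1.77). None was higher by 2-fold on the scale with 1 added. Tcf12, an E-protein with which Tcf21 pairs, was at 45.1 and 60.8 FPKM (0.42), and Gata4, a factor of the quiescent stellate cell, at 30.6 and 22.9 FPKM (−0.40).

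**Figure D4:**
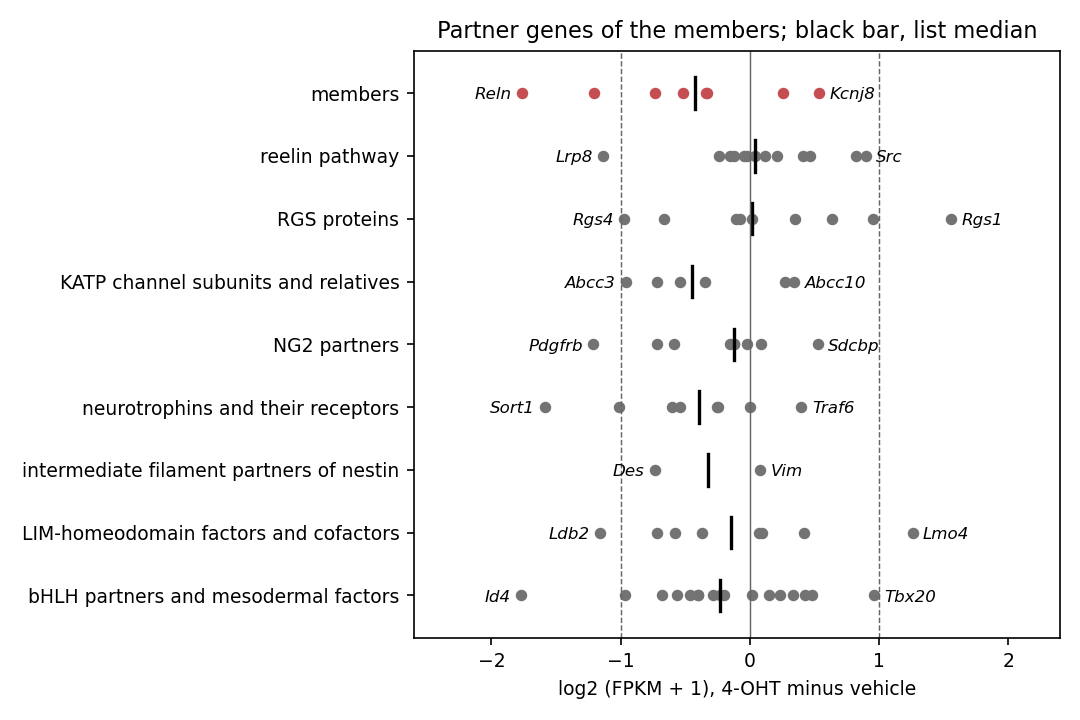
Change in log2 (FPKM + 1), 4-OHT minus vehicle, of each gene with at least 1 FPKM, by list, with the stellate and pericyte genes in red, black bars for list medians, dashed lines at 2-fold and the lowest and highest gene of each list named. The stellate and pericyte genes have a median of −0.43, and the partner lists have medians from −0.44 to 0.04.

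Wider lists of stellate and mural genes were lower in part. Of 14 further pericyte and mural genes 2 were lower, Pdgfrb and the endothelin receptor gene Ednrb (11.3 and 4.83 FPKM, log2 change −1.08), none was higher, and the median was −0.56. Of 22 quiescent stellate genes 4 were lower and 1 was higher (median −0.43). Tgfbi, a secreted matrix protein induced by TGF-beta, was among the lower genes (7.65 and 2.26 FPKM, −1.41), and the 1 higher gene was the interferon-induced factor gene Irf1 (2.03). Of 22 activated stellate genes 13 were lower and none was higher, with a median of −1.21, among them Acta2, alpha smooth muscle actin (−3.15), and Col1a1, collagen I (−1.53). Some genes are on more than 1 list.

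Markers of other cells also differed between the libraries. Of the 14 endothelial markers 2 were lower and none was higher (median −0.57). Of the 14 macrophage markers 3 were lower and none was higher (median −0.31). All 8 mesothelial markers were measured, with a summed level of 8.58 FPKM in the vehicle library and 2.54 FPKM in the 4-OHT library. Of their 5 genes with at least 1 FPKM, 2 were lower, Upk3b (1.78 and 0.146 FPKM) and Lrrn4 (1.27 and 0.102 FPKM). Of 7 vascular smooth muscle markers 6 were measured, at a sum of 33.5 and 24.0 FPKM, and Actg2 was listed at 0 with 4-OHT. Most of that sum was Smtn (18.1 and 16.2 FPKM) and Des (12.6 and 7.15 FPKM), the latter also counted above as a stellate gene. With vehicle, Myh11 was at 0.655 FPKM, Actg2 at 0.493 FPKM and Lmod1 at 0.344 FPKM. Of 9 portal fibroblast markers 5 were measured, at a sum of 70.8 and 31.4 FPKM. Of 10 Schwann cell and glial markers 3 were measured, at a sum of 4.16 and 2.61 FPKM. Cholangiocyte markers, 4 of 7 measured, summed to 99.99 and 37.8 FPKM. Nearly all of that sum was Spp1 (94.8 and 34.5 FPKM), which is also on the activated stellate list. Krt19 was at 4.39 and 2.57 FPKM, Cftr at 0.413 and 0.352 FPKM and Epcam at 0.364 and 0.333 FPKM. Not every list was lower with 4-OHT. Hepatocyte markers, 5 of 12 measured, summed to 18.7 and 38.5 FPKM, with Ass1 higher (log2 change 1.20) and Alb at −0.85. Ass1, at 15.7 and 37.3 FPKM, held most of both sums. Alb was at 1.41 and 0.334 FPKM, Fga at 0.497 and 0.0171 FPKM, Fgb at 0.421 and 0.0540 FPKM and Apoa2 at 0.618 and 0.766 FPKM. Neutrophil markers, 2 of 7 measured, summed to 9.96 and 18.6 FPKM, with Csf3r higher (1.15) and S100a8 at −0.81. Among 4 lymphocyte markers with at least 1 FPKM none passed 2-fold, with 2 below 0 and 2 above (median 0.17). The part of these cells in the values of Reln, Rgs5, Cspg4, Tcf21 and the others was not tested.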

How the data were processed

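RNA-seq values were deposited as 1 table of 17145 rows. It held 1 FPKM value per gene and library, deposited by the authors. That the values are FPKM was read from the table's layout, the use of Cufflinks and the steps of low values that scale with transcript length. STAR, Cufflinks and GRCm38 are named in the submitters' processing notes, with no version, setting, strand use or scaling between libraries. The log2 change deposited by the authors was recomputed and matched to within 1.6e-14. Each row also had a p-value and a q-value from the authors, and nothing in the labels says how these were estimated from 1 library per group. The lowest value in the higher library was 0.285 FPKM, so genes below that level are outside the table analysed.

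Identifiers were matched to GENCODE M21 on GRCm38 (17145 rows), 20 symbols turned into dates were restored, and 17 repeats of a symbol were dropped, keeping the row with the largest sum. Fragments were recovered from single-transcript genes longer than 600 bases as FPKM times transcript length less 176 bases (vehicle) or 170 bases (4-OHT), and 97.8% of 361 and 98.9% of 452 low values were within 0.1 of a whole number. This step and the fold counts were tested on simulated data. Intervals are exact at 95% (scipy 1.17.1, numpy 2.4.6, pandas 2.3.3, Python 3.11.15; figures with matplotlib 3.10.9).

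Groups come from the labelled treatment. The members and the 21 other gene lists were chosen with earlier results of these data known. All 10 members were to be named, then in each list the 3 genes that changed most and a set of close partners. Some genes that this rule takes are left out of the text. The pseudocount, the minimum, the fold and the scaling between libraries were varied.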

Additional observations from a re-analysis of the deposited data

How the results depend on the processing

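No member changed sign under any of the alternatives tried, which were a pseudocount of 0.1 or 5 and a 4-OHT library scaled to the vehicle upper quartile or total. Reln stayed past 2-fold under all 4. The count of members at least 2-fold lower was 1 with a pseudocount of 5, with a minimum of 5 FPKM and with a 3-fold threshold, in place of 2. With a pseudocount of 0.1 it was 3, as Tcf21 was added at −1.11. The members' median of −0.43 became −0.59 with a pseudocount of 0.1, −0.30 with one of 5, −0.54 at the same upper quartile and −0.58 at the same total, where the median of all genes moved from 0.03 to −0.08 and −0.11. Over all genes, a pseudocount of 0.1 gave 859 lower and 1010 higher, and a pseudocount of 5 gave 163 lower and 456 higher. A 3-fold threshold gave 143 lower and 414 higher. Of the results under an alternative, 40 were classed as the same and 30 as moved, most of the latter being values of single members. The class of 40 takes in sizeable shifts, such as 643 lower genes over all genes at the same total, beside 472 as reported. The shifts follow from the added constant, the threshold or the scaling factor itself. No paired analysis was possible because there is 1 library per group, and for the same reason no library could be left out. Depth limits Cspg4, with about 13 fragments in the 4-OHT library, and also Lhx2 and Rgs5 if their shortest coding transcripts are assumed, with about 10 and 13.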
